A study of Arabidopsis thaliana with 12 samples.

Results

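Among the spots of an expression array that were annotated to exactly 1 gene, 85 of 692 (12.3%) read exactly 0 in at least 3 of 6 tpt1 samples and in at least 3 of 6 wild-type (WT) samples of Arabidopsis thaliana. These 85 genes were chosen by their readings at 0 in the same samples, so their low level is the rule and not a finding, and it is described here without a test. The array held 3439 spots in all. The samples were total RNA of the tpt1 mutant, ecotype Wassilevskija (6 samples, numbered 1 to 6), and of WT of the same ecotype (6 samples, numbered 1 to 6). The labels describe tpt1 as having only a small remainder of the triose phosphate transport of its chloroplasts, and give no tissue, age, growth condition, allele detail or information on whether samples came from separate plants. The spread between samples may therefore be technical.

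The triose phosphate/phosphate translocator, whose activity the labels give as reduced in tpt1, sits in the inner envelope of the chloroplast and exports the products of the Calvin-Benson cycle to the cytosol in exchange for phosphate. A plant cell keeps many nuclear genes silent or nearly so outside the tissue that needs them, such as regulators of the flower or of the female gametophyte, while genes of carbon fixation are strongly transcribed in green tissue. On an array both kinds of gene are seen only through the brightness of their spot. The deposited intensities ran on a linear scale from 0 to a ceiling of 100, and a reading of 0 is the floor of that scale: it does not distinguish a transcript that was absent from a dim spot that was set to 0 before deposit. Levels of different spots are not set against each other as transcript amounts.

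The single-gene spots ran from spots that were always above 0, the most frequent kind, to spots that were always at 0. Of the 692 spots, 478 were above 0 in all 12 samples. Of the 85 near-zero genes, 18 were at 0 in all 12 samples, 14 in 11, 19 in 10, 14 in 9, 16 in 8, 3 in 7 and 1 in 6. The share of spots that met the rule differed little between kinds of annotation: it was 12.3% of the spots of 1 gene, 12.2% of the 870 spots of several genes (106 spots) and 12.4% of the 1877 spots with no gene in the annotation (233 spots).

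**Figure D1:**
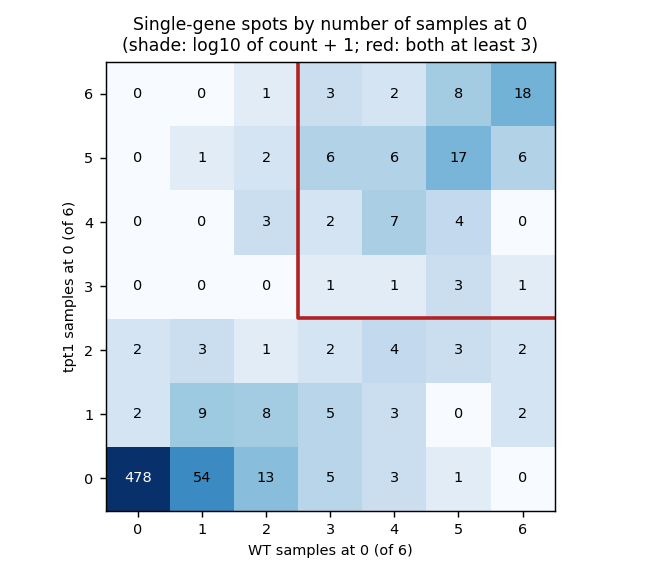
Number of single-gene spots by how many of the 6 tpt1 samples (vertical axis) and of the 6 WT samples (horizontal axis) read 0; the shade follows the log10 of the count plus 1 and the red line encloses the 85 genes. The corner with no zeros in either genotype holds 478 spots, and the corner with 6 zeros in each holds 18.

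Few of the near-zero genes have a named function. Of the 85 genes, 12 carried a symbol in the reference annotation and 73 were known by their locus only, so for most of them no function can be named from the sources used here. The share of near-zero genes was 12.9% among the 93 single-gene spots with a symbol and 12.2% among the 599 with a locus only. None of the 12 with a symbol was at 0 in all 12 samples, and 9 of them were at 0 in at least 10. Of the 73 with a locus only, 18 were at 0 in all 12 and 42 in at least 10. Of the 12 with a symbol, 6 read 0 in every tpt1 sample and 0 read 0 in every WT sample. All 6 had at most 2 WT readings above 0, and 5 of them had only 1. Over all 85 genes, 31 read 0 in every tpt1 sample and 25 in every WT sample. Nothing is read from these counts.

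In photosynthetic carbon metabolism, SBPASE and LrgB were near 0. SBPASE encodes sedoheptulose-bisphosphatase, an enzyme that regenerates the carbon dioxide acceptor in the Calvin-Benson cycle of the chloroplast. It read 0 in all 6 tpt1 samples and in 5 of 6 WT samples, with a reading of 0.0192 in WT 2. PRK, which encodes the phosphoribulokinase that follows in the same cycle, is not one of the 85: it read 0.984 to 1.71 in tpt1 (median 1.17) and 1.21 to 2.13 in WT (median 1.88), above 0 in all 12 samples. LrgB encodes a transporter of the plastid envelope that moves glycolate and glycerate in photorespiration. It read 0 in all 6 tpt1 samples and in 5 of 6 WT samples, with 0.0161 in WT 5.

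SBPASE and LrgB belong to pathways that a photosynthesising leaf uses, but the labels name no tissue. Whether these spots hybridised at all was not tested, so their readings show neither that the genes are silent nor that they are transcribed. Of the loci listed as markers of mesophyll and leaf, 1 of 6 had a single-gene spot, the antenna gene LHB1B2, and it was above 0 in all 12 samples. None of the 5 seed storage loci, the 2 pollen loci or the 3 root hair loci had one, so markers of other tissues could not be read. The genes are therefore called near-zero here, after their readings, and not silent.

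Among genes that act on the plastid NDH complex, which passes electrons from ferredoxin into the plastoquinone pool, 2 were near 0. CRR41, a factor for assembly of the complex, read 0.00662 in tpt1 6 and 0 in the other 5 tpt1 samples, and 0.026 in WT 1 and 0 in the other 5 WT samples. OTP85, a pentatricopeptide protein that edits a plastid transcript of the complex, read 0.0331 in tpt1 6 and 0.000252 in tpt1 4, and 0.00228, 0.004 and 0.0276 in WT 1, WT 2 and WT 6. It was among the least often 0 of the 12, at 0 in 7 of 12 samples. Other NDH genes on the array differed from each other. The subunit gene NdhS and the editing factor CRR21 were above 0 in all 12 samples, and the subunit gene NdhN fell just outside the rule, above 0 in 1 tpt1 and 4 WT samples. OTP70, a second gene named for organelle transcript processing, was above 0 in all 12.

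Regulators of reproduction were represented by DME and SAP. DME (DEMETER) encodes a DNA glycosylase that removes methylated cytosine in the central cell of the female gametophyte. It read 0.00334 in tpt1 2 and 0.0554 in WT 2, and 0 in the other 10 samples. SAP (STERILE APETALA) is needed for floral organs. It read 0.0415 in tpt1 5, and 0.0368, 0.00806 and 0.0199 in WT 2, WT 4 and WT 5. SPL (SPOROCYTELESS), which starts the formation of spore mother cells and was listed with them, was above 0 in all 12 samples. The AGAMOUS-like genes AGL26, AGL54 and AGL103 were also above 0 in all 12, but they were grouped by name and no role in reproduction was examined. A reading near 0 was thus shared by DME and SAP and not by SPL, which says nothing on reproductive genes in general.

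The remaining genes with a symbol covered several processes. UPP, the uracil phosphoribosyltransferase of pyrimidine salvage, read 0 in all 6 tpt1 samples, and 0.125 in WT 2 and 0.0173 in WT 6. CKS, the CMP-KDO synthetase that activates a sugar for the pectin of the cell wall, read 0 in all tpt1 samples and 0.0341 in WT 5 alone. DRT100, named for DNA-damage repair and toleration, read 0 in all tpt1 samples and 0.0127 in WT 5 alone, while DRT101, of the same name series, was above 0 in all 12 samples. ATSIK read 0 in all tpt1 samples and 0.0553 in WT 2 alone. SPPA, a signal peptide peptidase of the thylakoid, was the only one of the 12 with more readings above 0 in tpt1 than in WT, at 0.0207, 0.00963 and 0.0316 in tpt1 2, tpt1 5 and tpt1 6, and 0.0266 in WT 4. TRM31, of a family named for the motif that recruits the microtubule regulator TON1, read 0.00866 in tpt1 6 and 0.0343 in WT 2.

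Matching of symbols and synonyms to keywords placed 4 of the 85 genes in a class, in 3 of 13 classes. They were CKS and UPP of 18 single-gene spots for enzymes of metabolism, OTP85 of 3 for organelle RNA factors, and SPPA of 6 for proteolysis and chaperones. The keywords for transcription factors and chromatin (4 spots), signalling (2), photosynthesis and pigments (4), cell wall (5), redox proteins (2) and defence (1) matched the names of none of the 85. Transporters, translation, DNA replication and proteins of unknown function matched no single-gene spot, since the table gives names and not descriptions. The match reads letters of names and not functions: SBPASE and LrgB matched no keyword, CKS did not match those for the cell wall, and some spots were misplaced, such as the lyase CBL under defence. These counts therefore do not show which functions are missing among the 85.

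The 18 genes at 0 in all 12 samples were AT1G53050, AT1G67800, AT2G30100, AT3G09850, AT3G19810, AT3G22690, AT3G56330, AT3G61540, AT4G14050, AT4G14330, AT5G02830, AT5G05330, AT5G46560, AT5G47030, AT5G48440, AT5G51670, AT5G56850 and AT5G63290. They gave no reading that could be compared between the genotypes. By locus number, 8 of the 18 lie on chromosome 5 and 2 on chromosome 1. Of the 85 genes, 24 lie on chromosome 1, 9 on chromosome 2, 20 on chromosome 3, 6 on chromosome 4 and 26 on chromosome 5. That is 13.8%, 7.26%, 15.4%, 5% and 18.2% of the single-gene spots of chromosomes 1 to 5, a description for which no test was run. In the gene order of the reference assembly 2 pairs of near-zero genes lay close together, AT1G50750 with AT1G50770 and AT5G02830 with AT5G02850, each with 2 other genes between them.

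**Figure D2:**
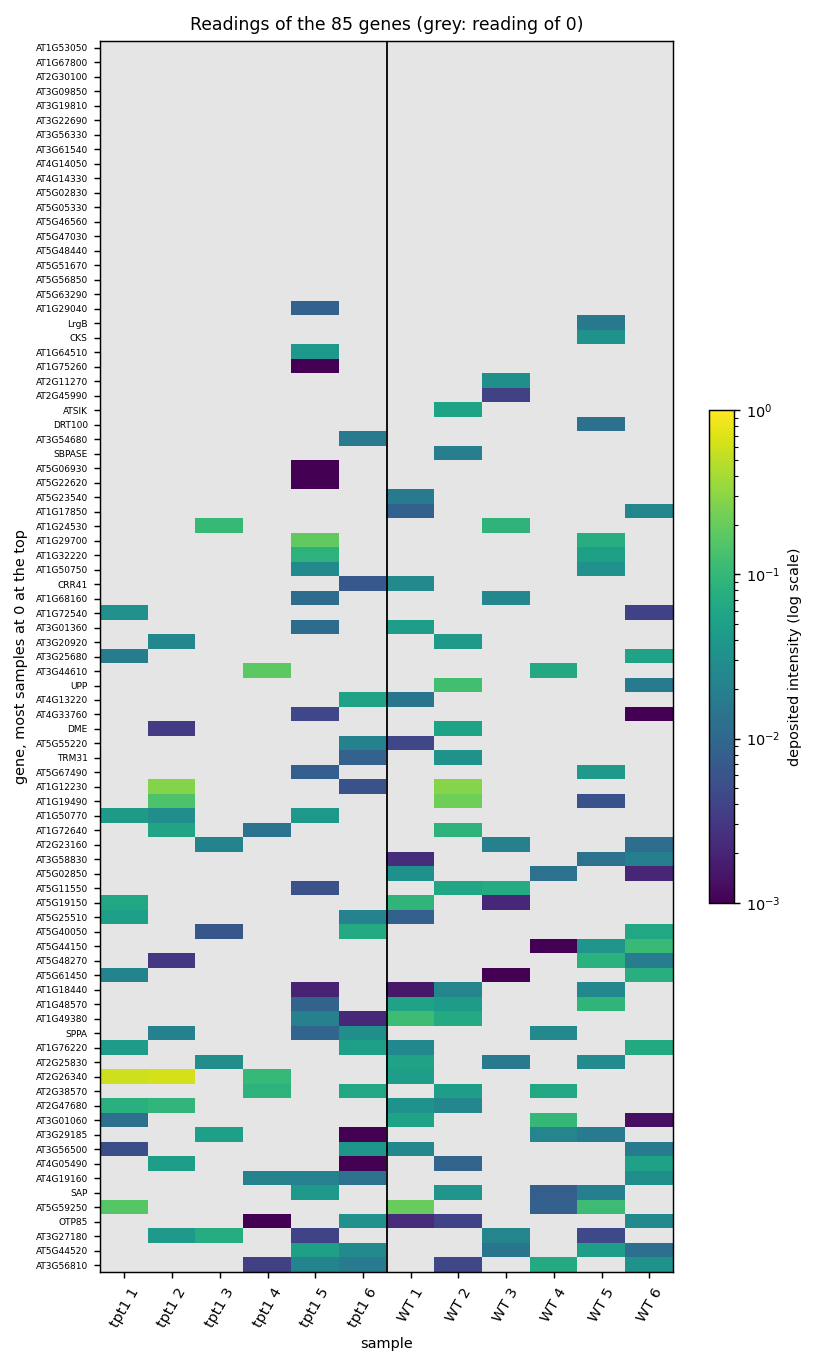
Deposited intensity (colour, log scale) of the 85 genes in the 6 tpt1 samples (left) and the 6 WT samples (right); grey is a reading of 0, and readings under 0.001 have the darkest colour. The 18 genes at the top are grey in all 12 samples, and AT2G26340 has the brightest cells, in tpt1 1 and tpt1 2.

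Where the near-zero genes did read above 0, they were dim. Of 1020 readings, 841 (82.5%) were 0 and 179 were above it. The median of these 179 was 0.026, and 162 were under 0.1. Within the readings above 0 of their own sample, over all spots, the 179 had a median percentile of 3.79; 106 lay in the lowest 5% and 145 in the lowest 10%. The median reading above 0 was 0.0227 in tpt1 and 0.0271 in WT for the 85 genes, and 0.467 in tpt1 and 0.256 in WT for the other 607 single-gene spots. The rule itself selects dim spots, so nothing is read from this difference.

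A few genes were not dim throughout. The 5 with the highest single reading were AT2G26340, AT1G12230, AT1G19490, AT5G59250 and AT1G29700. AT2G26340 read 0.596, 0.649 and 0.102 in tpt1 1, tpt1 2 and tpt1 4 and 0 in the other tpt1 samples, and 0.0473 in WT 1 and 0 in the other WT samples. The reading in tpt1 2 stood at the 58.7th percentile of that sample, so "near 0" does not describe this gene in the samples numbered 1 and 2 of tpt1. AT1G12230 read highest in the samples numbered 2, at 0.28 in tpt1 2 and 0.283 in WT 2, with 0.00567 in tpt1 6 as its only other reading above 0. Its reading in WT 2 stood at the 47.8th percentile of the readings above 0 in that sample. AT1G19490 showed the same samples, at 0.146 in tpt1 2 and 0.217 in WT 2, with 0.00569 in WT 5. AT5G59250 read 0.16 in tpt1 1, and 0.201, 0.00839 and 0.112 in WT 1, WT 4 and WT 5. AT1G29700 read 0.187 in tpt1 5 and 0.0737 in WT 5, and 0 elsewhere. In all, 11 of the 85 genes had a reading of at least 0.1.

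In some of the genes with both kinds of reading, those above 0 fell on the same sample number in both genotypes, as in AT1G12230 and AT1G29700. For number 1, 12 genes were above 0 in tpt1 and 21 in WT, and 8 were shared. For number 2 the counts were 12 in tpt1, 19 in WT and 7 shared. For number 3 they were 6, 11 and 4, and for number 4 they were 7, 10 and 3. For number 5 they were 23, 19 and 9, and for number 6 they were 19, 20 and 8. The shared genes made up 39.1% to 66.7% of the tpt1 genes (median 50.6%) and 30% to 47.4% of the WT genes (median 37.5%) for samples of the same number. For the 30 pairs with different numbers they made up 0% to 57.1% of the tpt1 genes (median 16.7%) and 0% to 40% of the WT genes (median 12.8%), so the ranges overlap.

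Taken as a share of the genes above 0 in either sample, each of the 12 samples overlapped most with the sample of its own number in the other genotype. That share was 21.4% to 32% for the 6 pairs of the same number. It was 0% to 25% for other pairs of the 2 genotypes, 0% to 14.3% for neighbouring numbers of 1 genotype (1 and 2, 3 and 4, 5 and 6) and 0% to 20.6% for other pairs of 1 genotype. Some of the leads were small: tpt1 6 shared 25.8% with WT 6 and 25% with WT 1. By count, tpt1 4 shared 3 genes with WT 4 and 4 with WT 2. Of the 47 genes with a reading above 0 in both genotypes, 32 had at least 1 number in common. A gene with more readings above 0 has more ways to share a number. Of the 17 with exactly 1 such reading in each genotype, 8 had it at the same number. Over all spots, samples of the same number also deviated together from their group means, with correlations of 0.55 to 0.70. The labels do not say what a number stands for, and its part in the readings was not tested.

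**Figure D3:**
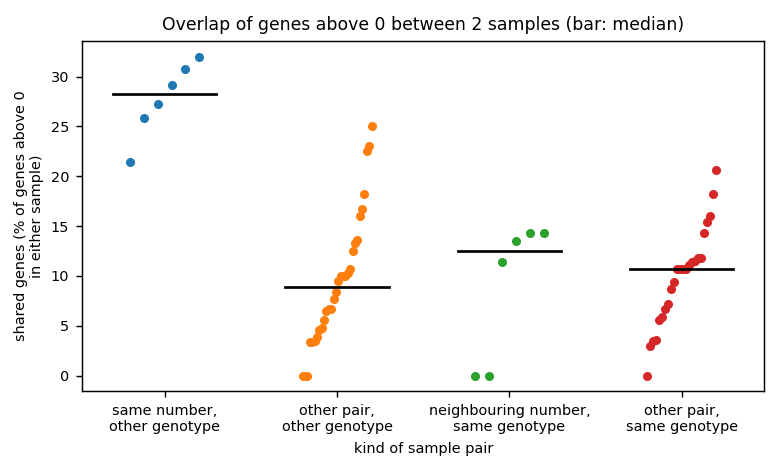
Percent of genes shared (of the genes above 0 in either sample) for each pair of samples, by kind of pair; points are pairs and bars are medians. The 6 pairs of the same number lie between 21.4% and 32%, with a median of 28.2%, against medians of 8.93%, 12.5% and 10.7% for the other kinds.

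The 2 genotypes were then set side by side. Readings above 0 made up 15.5% of the 510 readings of the 85 genes in tpt1 (79 readings) and 19.6% of the 510 in WT (100 readings). The number of genes above 0 was 6 to 23 per tpt1 sample (13.2 ± 6.68, mean ± SD, n = 6) and 10 to 21 per WT sample (16.7 ± 4.84, n = 6), and these ranges overlapped. It was lower in tpt1 for 5 of the 6 numbers and higher for number 5. The samples numbered 3 and 4 had the fewest in both genotypes, at 6 and 7 in tpt1 and 11 and 10 in WT, and they also had the most zeros over the whole array. The summed reading of the 85 genes was 0.717 ± 0.443 in tpt1 and 0.696 ± 0.342 in WT (mean ± SD, n = 6 each), a difference smaller than the spread between samples. These sums are on the deposited scale, on which the median reading above 0 over all spots was also higher in tpt1, at 0.461 ± 0.0734 against 0.255 ± 0.049 in WT. That median was close between neighbouring numbers (1 and 2, 3 and 4, 5 and 6). In tpt1 1 to 6 it was 0.542, 0.537, 0.466, 0.468, 0.377 and 0.374. In WT 1 to 6 it was 0.301, 0.305, 0.268, 0.266, 0.192 and 0.199. Whether the 6 samples of a genotype are independent was not tested, and each SD describes these samples only. The sums also rest on 1 gene, AT2G26340. Without it, a choice made after its values were seen, the sum was 0.493 ± 0.18 in tpt1 and 0.688 ± 0.338 in WT. The difference, tpt1 minus WT, changed sign to -0.195. It was then larger than the SD of the tpt1 samples and smaller than the SD of the WT samples, and it was not tested.

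**Figure D4:**
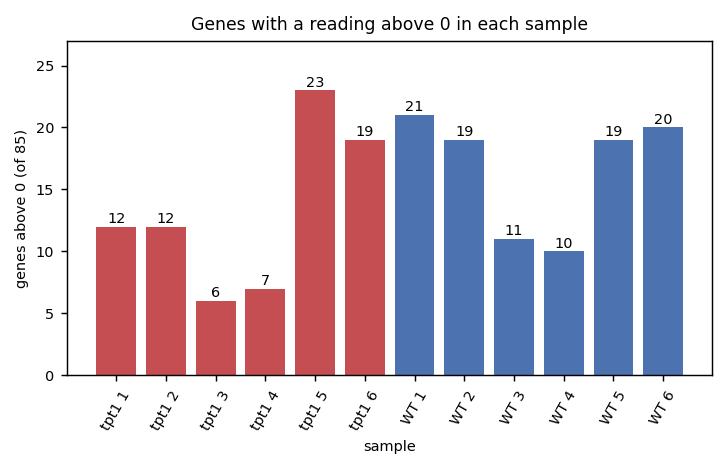
Number of the 85 genes with a reading above 0 in each tpt1 sample (red) and each WT sample (blue). The lowest bars are tpt1 3 and tpt1 4 (6 and 7 genes), and the highest is tpt1 5 (23 genes).

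Of the 85 genes, 27 had more zeros in tpt1, 15 had more zeros in WT and 43 had equally many. Among the other 607 single-gene spots the count ran the other way, with 14 that had more zeros in tpt1 and 105 that had more in WT. Over the array, 385 to 476 spots were at 0 in a tpt1 sample and 490 to 603 in a WT sample. The rule asks for zeros in both genotypes, so spots with zeros in WT alone or in tpt1 alone are not among the 85. The difference in direction was not tested. At 0 in every tpt1 sample but not in every WT sample were 13 genes, and at 0 in every WT sample but not in every tpt1 sample were 7. Of these, 8 and 6 had only 1 reading above 0. Outside the rule, 1 more single-gene spot was at 0 in every tpt1 sample, with 2 zeros in WT. At 0 in every WT sample were 2 more with 2 zeros in tpt1 and 2 more with 1 zero in tpt1. Nothing is read from these counts.

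The rule allows a gene at most 3 readings above 0 per genotype, and 4 genes reached the largest gap it allows, 3 against 0. AT1G50770 read 0.0426, 0.0304 and 0.04 in tpt1 1, tpt1 2 and tpt1 5, and 0 in all WT samples. The other 3 were at 0 in all tpt1 samples. AT5G44150 read 5.53e-05, 0.0365 and 0.107 in WT 4, WT 5 and WT 6. AT5G02850 read 0.0318, 0.0133 and 0.0021 in WT 1, WT 4 and WT 6, and AT3G58830 read 0.00248, 0.0136 and 0.0198 in WT 1, WT 5 and WT 6. In each of the 4 the other 3 samples of the same genotype read 0, so the genotypes overlapped at 0. The reading of AT5G44150 in WT 6 stood at the 29.8th percentile of the readings above 0 in that sample, the highest among these 4 genes.

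In the fit across the whole array (limma on log2 of the quantile-normalised intensity plus a pseudocount of 0.1), 427 of 3439 spots (12.4%) passed a Benjamini-Hochberg adjusted p of 0.05 between tpt1 and WT. That fit does not use the sample number and takes the 6 samples of a genotype as independent. With the number as a replicate block 871 spots passed, and on the deposited scale 1503 did. With neighbouring numbers averaged and their sets as a term, 0 passed (961 at an unadjusted p under 0.05), or 453 without the spots at 0 in all samples. Of the 692 single-gene spots, 81 (11.7%) passed in the first fit. The fit without the spots at 0 in all samples held 67 of the 85 near-zero genes, and the others held all 85. None of these genes passed in any of the fits, and 0 had an unadjusted p under 0.05 in the first. Nothing is read from that count, because the rule picked genes with zeros in both groups. Their log2 changes lay between -0.46 and 0.82 with a median of -0.05, beside a median of 0.04 for all spots. A fit that leaves zeros out and asks for 4 readings above 0 per genotype could test none of them.

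The edge of the rule did not separate distinct kinds of spot. Just inside it were 17 genes with exactly 3 zeros in at least 1 genotype, whose highest readings ran from 0.0198 to 0.649 (median 0.051). Just outside were 17 single-gene spots with 2 zeros in one genotype and at least 3 in the other, whose highest readings ran from 0.0217 to 0.698 (median 0.128). Of those outside, 11 had their 2 zeros in tpt1 and 6 in WT. The ones with most zeros were AT1G72890 and AT2G46190, each at 0 in 2 tpt1 and all 6 WT samples with readings up to 0.231 and 0.317 in tpt1, and AT5G01960, at 0 in all 6 tpt1 and 2 WT samples with readings up to 0.0531 in WT. The next 5, each at 0 in 7 of 12 samples, were AT1G29070, AT1G62760 and AT2G27680, with 2 zeros in tpt1, and AT3G32940 and NdhN, with 2 zeros in WT; all 5 are named because they tie.

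No near-zero gene had a second spot of its own. The 3 loci AT1G17850, AT1G24530 and AT3G25680 were also listed among the 3 genes of another spot, and those shared spots were above 0 in all 12 samples. The shared spot that lists AT1G17850 read 0.565 to 0.962 in tpt1 and 0.178 to 0.502 in WT. The one that lists AT1G24530 read 0.427 to 1.92 in tpt1 and 0.519 to 1.12 in WT, and the one that lists AT3G25680 read 0.161 to 0.364 in tpt1 and 0.0676 to 0.264 in WT. Which of the 3 listed genes gave these readings cannot be told apart.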

How the data were processed

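The authors deposited linear spot intensities from 0 to 100 for 6 tpt1 and 6 WT samples. Scanning, background correction and scaling are not given in the sources used here, and the handling of low signals is therefore unknown. Depth has no meaning for arrays, and the number of arrays limits the precision. Genes came from the platform annotation, named through gene identifiers in a reference table of assembly TAIR10.1 (690 of 692 single-gene spots and all 85 near-zero genes matched), used for names and gene order only.

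A spot counted as not detected at exactly 0, which no scaling changes. The genes, lists and rules were chosen with earlier results of these data known, and the comparison genes beside the members after their values were seen. Named genes are those at 0 in all samples, the 5 with the highest reading, those with 3 readings above 0 in 1 group and none in the other, up to 4 of any keyword class with at least 3 members, and up to 4 just outside the rule, with those tied with the fourth. The 12 with a symbol were added later.

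For the fit, intensities above 0 were quantile normalised, zeros kept, 0.1 added, and log2 taken (limma 3.58.1, R 4.3.3, trend in the prior variance). The replicate block takes samples of the same number as a pair, on the ground that every same-number correlation exceeded 0.1. Each of the 12 samples correlated best with its own number among the samples of the other group. The labels do not say what a number stands for, and the first fit does not use it. On data simulated for tpt1 against WT over 3439 spots, 76 of 100 spots changed by 1 (log2) and 96 of 100 changed by 2 were found, with 7 false calls. The simulated noise was normal and independent between samples. It had no readings held at 0 and no shared deviation of samples of the same number. These counts therefore do not give the error rates of the fit on the deposited data. Figures used matplotlib 3.10.9.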

Additional observations from a re-analysis of the deposited data

How the results depend on the processing

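With stricter rules, 49 genes had at least 5 zeros in each group and 18 had 6, and 52 remained when neighbouring numbers counted as 1 sample that is 0 where both are. At least 2 or 4 zeros gave 103 and 68 genes, and taking readings at or under 0.01 or 0.05 as not detected gave 93 and 106. Leaving out 1 sample gave 75 to 84 genes. The genes not detected in any sample numbered 18 to 23 when 1 sample was left out, 24 with readings up to 0.01 taken as not detected and 56 with readings up to 0.05, so how many genes are never detected depends on a floor that the deposited scale does not define. Genes with more zeros in tpt1, against those with more in WT, numbered 33 to 26, 27 to 15, 16 to 10 and 8 to 6. These counts are for at least 2, 3, 4 and 5 zeros asked. The sets are nested and were chosen by the same zeros, so nothing is read from the direction. Over all single-gene spots it was the reverse, at 41 to 120. Over the whole array, 427 spots passed; 1503 did on the deposited scale, 871 with the sample number as a replicate block, and 339 to 403 without 1 sample. With the mean of neighbouring numbers as 1 value and those 3 sets as a term, limma called 0 spots (961 at an unadjusted p under 0.05), and 453 once the spots at 0 in all samples, whose variance is 0, were left out, an alternative chosen after seeing the data. The fit with 453 calls held 67 of the 85 genes. None of the genes held passed in any of these fits (at most 2 had an unadjusted p under 0.05 in any 1 fit), with the replicate block included. Nothing is read from this, because the rule picked genes with zeros in both groups.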
